A study of Rattus norvegicus with 17 samples.

Results

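Mitochondrial ribosomal protein genes are nuclear genes whose products, after import, build the ribosome inside mitochondria. Its large subunit (Mrpl genes) joins amino acids and its small subunit (Mrps genes) reads the messenger RNA. That ribosome translates only the few messengers of mitochondrial DNA, which code for core parts of the respiratory chain and of ATP synthase, so respiration needs it. T cells that leave rest and start to divide are known to build more mitochondria and more of this machinery. The genes were chosen by name: every row of the array table that the platform annotation gave exactly 1 gene symbol beginning with Mrpl or Mrps, and for each gene the row with the highest mean over the arrays. This found 72 rows for 68 genes among the 14506 genes with a symbol of their own. All 68 passed the level filter that kept 10879 genes for testing. A row that the annotation shares between Mrpl20 and Ankrd65 was left out, and Mrpl11, Mrps6 and Mrps36 had no row of their own and were not analysed here. Placed by their known position in the mammalian ribosome, 43 genes belong to the large and 25 to the small subunit. Mrps30 and Mrps18a carry a small subunit name but sit in the large subunit, and they are counted there.

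RNA came from CD4+ T helper cells of female Dark Agouti rats, sorted from the inguinal lymph nodes by flow cytometry, with 1 array per biological replicate. All rats had been immunized with myelin oligodendrocyte glycoprotein (MOG), which gives this inbred strain experimental autoimmune encephalomyelitis, which serves as a model for multiple sclerosis, and nodes were taken 7 days later. From 5 weeks before immunization to the end, age-matched rats ate a diet with 0 IU of vitamin D (deprived, 5 arrays, replicates 2 to 6), 2 IU (regular, 6 arrays) or 10 IU (supplemented, 6 arrays). The sources used here give neither the amount of feed behind these IU nor the rats' ages. No unimmunized rats are among these arrays, so each value describes cells of immunized animals. The study asked how vitamin D in the diet acts on gene expression in these T cells.

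Values are log2 array signals, and a change is a difference of group means on that scale with the SE (standard error) from the fit. A gene was called changed at an adjusted p under 0.05 in limma, adjusted over all 10879 genes. Signal also depends on the probes of a row, so a brighter gene need not have more RNA, and signals of different genes are set side by side only as brightness. The 12 T helper markers, Cd4 and the Cd3 chains among them, averaged 10.08 to 10.22 on deprived, 10.1 to 10.23 on regular and 9.82 to 10.03 on supplemented arrays. The spread of an array, the SD of its log2 values over all rows, was 2.027 to 2.073 on deprived, 2.001 to 2.063 on regular and 1.908 to 1.972 on supplemented arrays, lower on every supplemented array than on any other. In these bulk samples, fewer cells of a type and less RNA per cell cannot be told apart.

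The first question was how the supplemented diet differed from the regular one. Mitochondrial ribosomal protein genes were broadly lower in T cells of supplemented rats. Of the 68 genes, 45 fell, 0 rose and 23 did not pass the test, a share of 66.2% lower against 22.9% of all genes tested (10.8% of all genes rose). The median change was -0.261, against 0.001 over all genes tested, and single genes ranged from -0.83 to 0.13. In 25 of the 68 genes all 6 supplemented arrays lay below all 6 regular arrays, which held for 9.92% of all genes tested. The number of lower genes was 38 after quantile normalization (15.8% of all genes were lower), where 1 gene (Mrps22) was higher. It was 39 after cyclic loess (16% of all genes) and 50 with arrays centred on their median (30.7% of all genes). Without supplemented replicates 2 and 5, the arrays with the smallest spread, 35 fell (16% of all genes). With array spread as a covariate 0 of the 68 genes passed in limma, and 0 of all 10879 genes tested did. At an unadjusted p under 0.05 there were 14 of the 68, against 48 before, and 1192 of all genes, against 4912 before. With myeloid cell markers (macrophage, monocyte and neutrophil, averaged per array) as a covariate 16 of the 68 passed, all lower, where 4.82% of all genes passed in either direction.

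Genes of both subunits fell. In the large subunit 28 of 43 genes fell (65.1%, median -0.304), and in the small subunit 17 of 25 fell (68.0%, median -0.257). Of all genes tested 22.9% were lower, with a median change of 0.001. Averaged over the 43 large subunit genes, the log2 signal was 7.633 ± 0.059 (SD, n = 6) on supplemented arrays against 7.93 ± 0.092 (SD, n = 6) on regular arrays. Averaged over the 25 small subunit genes it was 8.153 ± 0.063 (SD, n = 6) on supplemented arrays against 8.463 ± 0.078 (SD, n = 6) on regular arrays. For both subunits every supplemented array lay below every regular array. Deprived arrays averaged 7.898 ± 0.057 for the large and 8.454 ± 0.061 for the small subunit (SD, n = 5), within the range of the regular arrays.

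**Figure D1:**
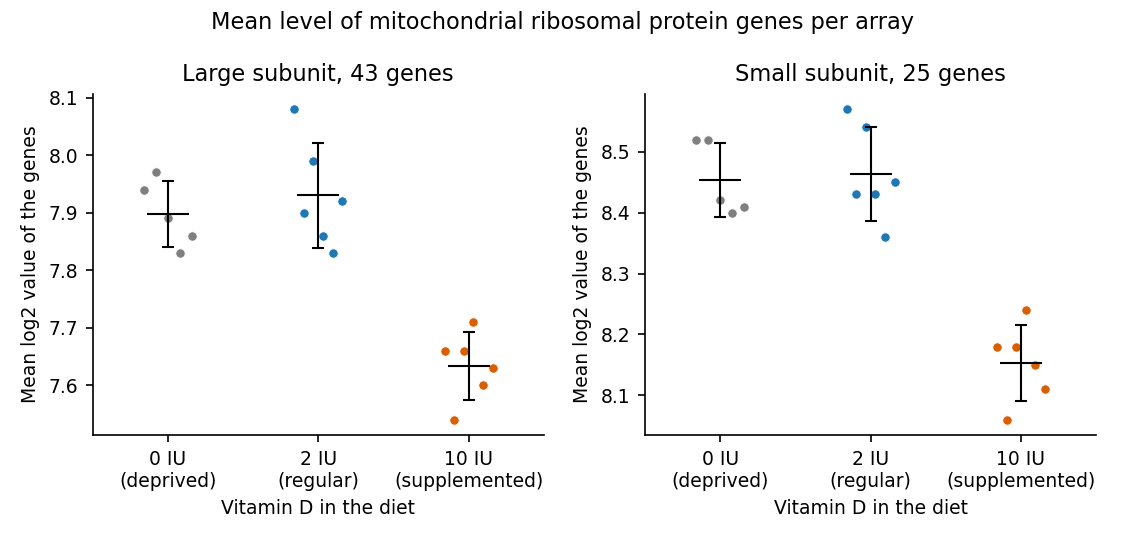
Mean log2 signal of the 43 large subunit genes (left) and the 25 small subunit genes (right) on each array, by vitamin D in the diet (0, 2 and 10 IU). Points are arrays and bars the mean ± SD. The supplemented arrays span 7.54 to 7.71 for the large and 8.06 to 8.24 for the small subunit, below all arrays of both other diets.

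The counts by class of protein stand against the 22.9% of all genes tested that were lower. Genes whose proteins have a counterpart in the bacterial ribosome fell in 27 of 39 (69.2%, median -0.322). Genes of proteins counted here as acquired by the mitochondrial ribosome during evolution fell in 18 of 29 (62.1%, median -0.241). That class includes Mrps18a and Mrps18b, although the related Mrps18c was counted with the bacterial class. The list used here held 6 genes of the central protuberance, the ridge of the large subunit that faces the small one. Of these, Mrpl18 (-0.36), Mrpl46 (-0.36), Mrpl48 (-0.34) and Mrpl52 (-0.23) fell, while Mrpl38 (0.11) and Mrpl40 (0.09) did not pass. Of 4 listed head proteins of the small subunit, Mrps14 (-0.52), Mrps9 (-0.26) and Mrps7 (-0.25) fell, and Mrps10 (0.03) did not pass. Both lists may be incomplete, so these counts cover only the genes named. No difference between these classes was tested.

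Among large subunit genes, Mrpl23 had the largest fall. Its protein sits at the exit of the tunnel through which new protein leaves the ribosome. Its log2 signal was lowest 7.69, median 8.20 and highest 8.35 on the supplemented arrays, against 8.76, 8.97 and 9.22 on the regular arrays. No supplemented array reached a regular one, and Mrpl23 fell by 0.83 (SE 0.11, n = 6 and 6, adjusted p = 1.14e-05), to 56.3% of the regular level. Mrpl15, a core protein with a bacterial counterpart, read 6.80, 7.38 and 7.62 (lowest, median, highest) on supplemented arrays, against 7.79, 8.10 and 8.26 on regular arrays. The groups again lay apart, with a fall of 0.77 (SE 0.11, adjusted p = 1.47e-05). Mrpl41, a protein with no bacterial counterpart, read 9.02, 9.40 and 9.75 on supplemented arrays and 9.70, 10.00 and 10.49 on regular arrays, so that the highest supplemented array lay just above the lowest regular one. It fell by 0.66 (SE 0.11, adjusted p = 0.000128). Mrpl36, a short protein kept from bacteria, read 8.83, 9.03 and 9.18 on supplemented arrays and 9.45, 9.63 and 9.88 on regular arrays, with no overlap (change -0.64, SE 0.08, adjusted p = 5.66e-06).

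In the small subunit the largest fall was that of Mrps23, a protein specific to mitochondria. It read 9.29, 9.57 and 9.83 (lowest, median, highest) on supplemented arrays, against 10.17, 10.37 and 10.52 on regular arrays. The groups did not overlap, and Mrps23 fell by 0.80 (SE 0.09, n = 6 and 6, adjusted p = 1.88e-06), to 57.6% of the regular level. Mrps33, also specific to mitochondria, read 8.68, 8.87 and 9.08 on supplemented arrays and 9.40, 9.51 and 9.75 on regular arrays, again apart (change -0.66, SE 0.07, adjusted p = 2.25e-06). Mrps17, which has a bacterial counterpart, read 7.93, 8.22 and 8.52 on supplemented arrays and 8.40, 8.84 and 9.14 on regular arrays. Its groups overlapped in their tails, with a fall of 0.59 (SE 0.10, adjusted p = 0.000178). Mrps18c follows with its family.

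**Figure D2:**
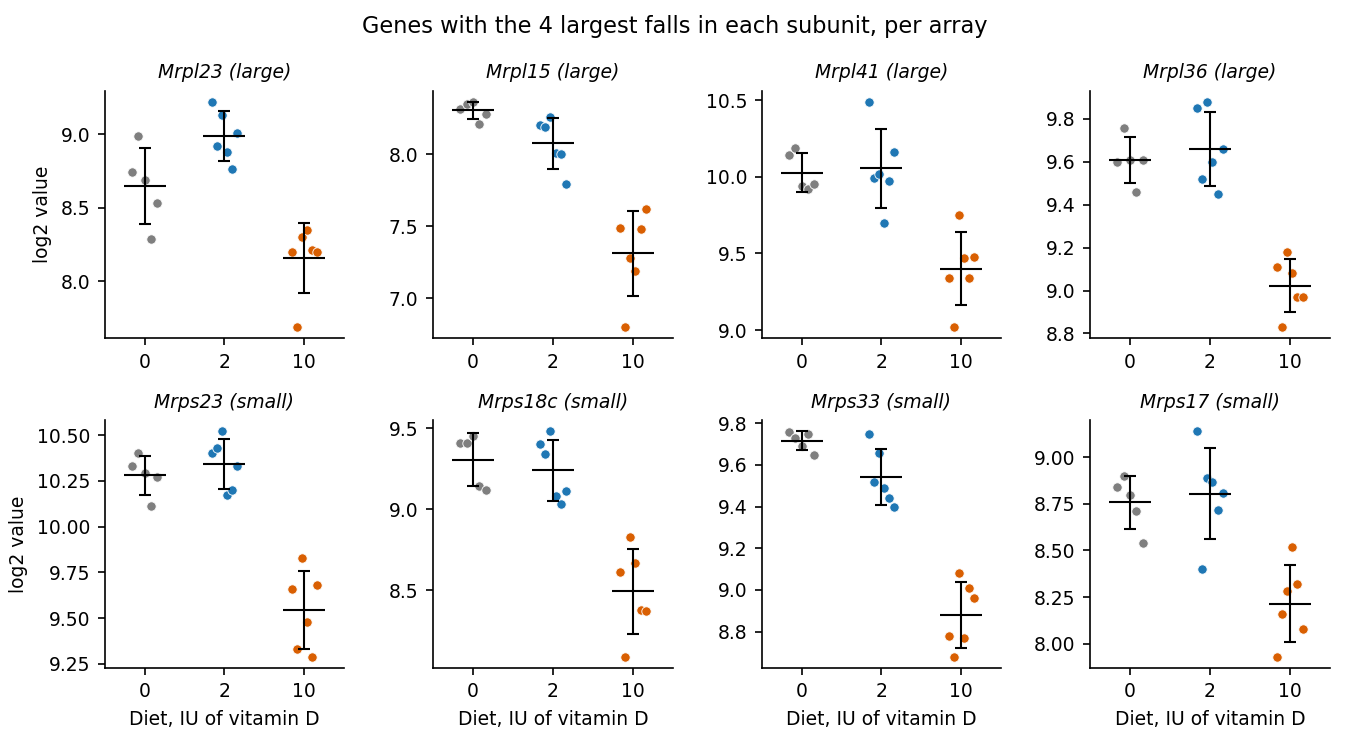
Log2 signal of the 4 genes with the largest falls in the large (top) and small subunit (bottom) on each array, by IU of vitamin D in the diet. Points are arrays and bars the mean ± SD. Supplemented arrays lie below regular ones without overlap in Mrpl23, Mrpl15, Mrpl36, Mrps23, Mrps18c and Mrps33, and with overlap in Mrpl41 and Mrps17.

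The S18 family has 3 related genes. They are Mrps18a, whose product sits in the large subunit, and Mrps18b and Mrps18c, whose products sit at different places of the small subunit. Mrps18a read 7.47, 7.86 and 7.95 (lowest, median, highest) on supplemented arrays and 8.19, 8.36 and 8.53 on regular arrays, and fell by 0.60 (SE 0.09, adjusted p = 2.98e-05). Mrps18c read 8.09, 8.49 and 8.83 on supplemented arrays and 9.03, 9.23 and 9.48 on regular arrays, and fell by 0.75 (SE 0.11, adjusted p = 2.1e-05). In both genes the groups lay apart. Mrps18b read 8.62, 8.77 and 9.14 on supplemented arrays and 8.78, 8.93 and 9.23 on regular arrays, with broad overlap, and its change of -0.16 (SE 0.08) did not pass (adjusted p = 0.126). Without supplemented replicate 4, its highest supplemented array, the change was -0.224 and passed (adjusted p = 0.0208). Whether the 3 changes differ from each other was not tested.

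Several genes are known for inherited disease in humans, where variants impair mitochondrial translation. Of these, Mrps16 (-0.55, SE 0.09, adjusted p = 5.91e-05) and Mrpl3 (-0.30, SE 0.09, adjusted p = 0.0112) fell. So did Mrpl44, a protein with a ribonuclease fold (-0.24, SE 0.06, adjusted p = 0.00648). Without supplemented replicates 2 and 5, neither Mrpl3 (-0.194, adjusted p = 0.11) nor Mrpl44 (-0.155, adjusted p = 0.0686) passed. Mrpl12, the stalk protein that brings translation factors to the ribosome, read 5.94, 6.09 and 6.23 on supplemented arrays and 5.95, 6.16 and 6.31 on regular arrays, an overlap over nearly the whole range (-0.06, adjusted p = 0.556). Mrps22 (0.04, adjusted p = 0.646) also did not pass. Mrps34 stood at 99.8% of the regular level and did not pass (adjusted p = 0.985). Of the proteins at functional centres, Mrps12 of the decoding centre fell by 0.39 (SE 0.08, adjusted p = 0.000455), with no overlap of the arrays. Mrpl2, an RNA binding protein near the site of peptide bond formation, fell by 0.38 (SE 0.08, adjusted p = 0.000583), also with no overlap.

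The 23 genes that did not pass included some with estimates close to 0. Mrpl53 stood at 99.8% and Mrpl37 at 98.8% of the regular level in the large subunit, and Mrps27, a protein with pentatricopeptide repeats, at 97.9% in the small subunit. Their SEs were 0.07, 0.08 and 0.07 on the log2 scale. Mrps30 (-0.06, SE 0.08, adjusted p = 0.591) read 8.56, 9.01 and 9.19 on supplemented arrays and 8.91, 9.00 and 9.17 on regular arrays. Only 6 of 68 genes had an estimate above 0, the largest in Mrps11 (0.13, SE 0.09, adjusted p = 0.244). Mrpl49, the gene with the lowest signal, passed at -0.23 (SE 0.09, adjusted p = 0.0474), but its call was lost without any one of 13 of the 17 arrays, with changes of -0.246 to -0.163 and adjusted p values of 0.0508 to 0.136. These were supplemented replicates 2, 5 and 6, all 5 deprived replicates, and regular replicates 1, 2, 3, 5 and 6. Mrps21, the small subunit gene with the highest signal, fell by 0.34 (SE 0.07, adjusted p = 0.000986) and had no overlap of the arrays, but did not pass after quantile normalization (-0.150, adjusted p = 0.117) or cyclic loess (-0.148, adjusted p = 0.124).

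**Figure D3:**
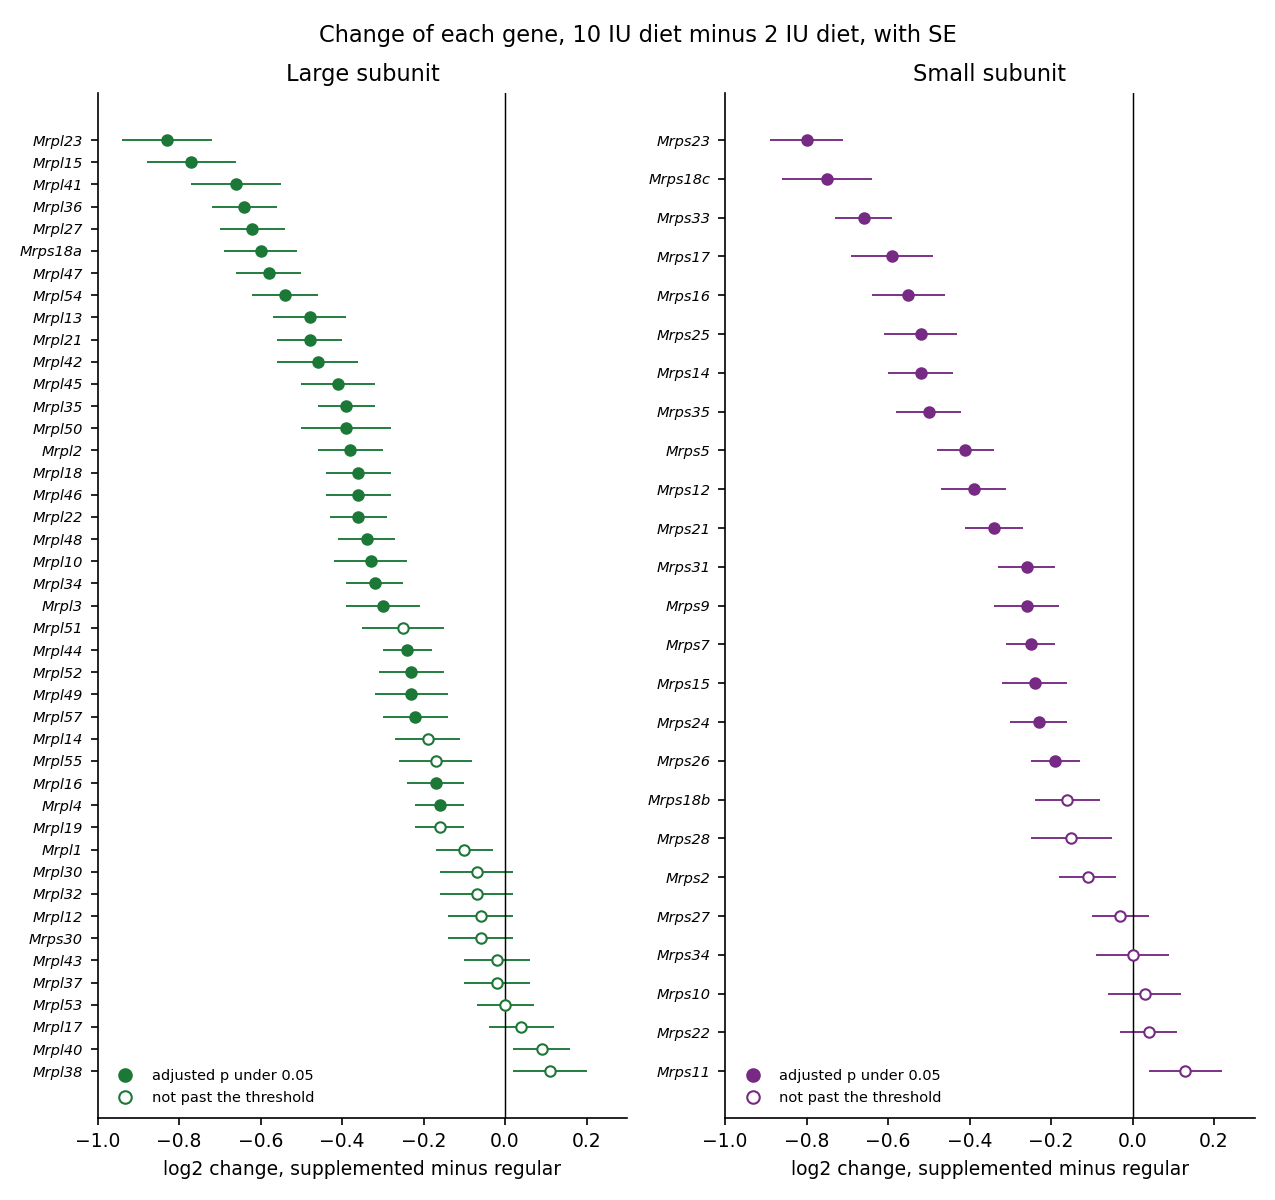
Log2 change, supplemented minus regular, of each of the 43 large (left) and 25 small subunit genes (right), ordered by size. Points are estimates with their SE, filled where the adjusted p was under 0.05. The changes run from -0.83 (Mrpl23) to 0.13 (Mrps11), and all 45 filled points lie below 0.

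Signal level moved with the changes across the whole array: bright genes tended to be lower on supplemented arrays. Over the 10879 genes tested, change and mean signal correlated at r = -0.505, and over the 68 genes at r = -0.407. Both are correlations across genes, which share arrays and are not independent replicates. The median signal of the 68 genes was 8.04, against 7.07 for all genes tested. Between log2 signals of 7.27 and 8.71, which hold the middle 34 of the 68 genes, 23 of the 34 (67.6%) fell, against 35.0% of the 2850 genes tested in that range. The median change there was -0.261 for the 34 genes and -0.117 for all genes. All genes tested were also split by signal into 4 bins of equal size. In the brightest bin 21 of the 25 ribosomal genes (84.0%) fell, against 52.6% of all genes there. In the next bin 17 of 28 (60.7%) fell against 28.6%, and in the one below it 6 of 14 (42.9%) against 8.0%. The dimmest bin held 1 of the 68 genes, Mrpl49.

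**Figure D4:**
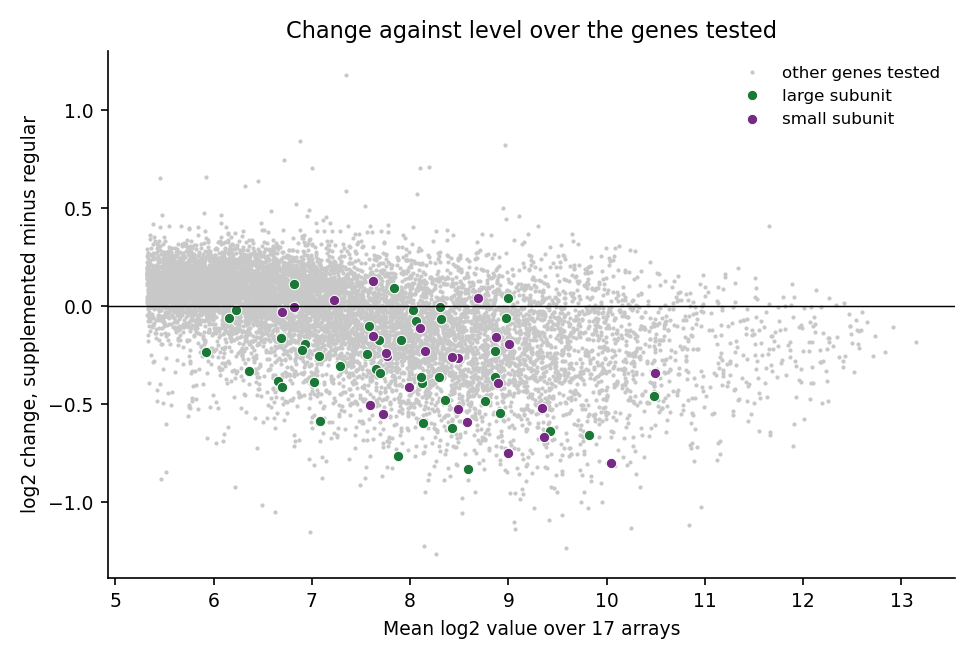
Log2 change, supplemented minus regular (vertical), against the mean log2 signal over 17 arrays (horizontal) for the 10879 genes tested. Large and small subunit genes are coloured and other genes grey. The coloured points lie mostly below 0 at signals of 5.92 to 10.49, in a cloud that itself slopes down with signal (r = -0.505).

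Some markers of other cells also differed between these diets, where 10.8% of all genes were higher and 22.9% lower. Of 11 tested macrophage, monocyte and neutrophil markers 3 were higher in supplemented samples (Tyrobp, Mrc1 and C1qb) and 8 did not pass. Their mean per array was 6.29 to 6.38 on supplemented and 6.13 to 6.25 on regular arrays. Itgam, S100a8, S100a9, Adgre1 and Cd163 lay below the level filter. Of 6 tested B cell markers 4 were higher, with array means of 6.22 to 6.7 on supplemented and 5.99 to 6.49 on regular arrays. Among the other two, Cd22 had an estimate of -0.49 (SE 0.21) and did not pass (adjusted p = 0.0704), and Ms4a1 and Fcer2 lay below the filter. The 1 tested plasma cell marker, Sdc1, was higher. Of 6 CD8 T and NK cell markers 1 was higher (Ncr1) and 1 lower (Cd8b), of 8 stromal and endothelial markers 1 was higher (Col1a1) and 1 lower (Pecam1), and of 2 red blood cell markers 1 was higher (Alas2). Of 5 dendritic cell markers 0 passed in limma, also at an unadjusted p under 0.05. Of the 12 T helper markers 5 (41.7%) were lower, among them Cd4 (-0.59, SE 0.11). Their mean per array was 9.82 to 10.03 on supplemented and 10.1 to 10.23 on regular arrays. These means lie in the signal range of the brightest bin above, where 52.6% of all genes fell. Beyond the macrophage covariate above, the part of other cells in the result was not tested.

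Promoter sequences are given for the gene with the largest fall in each subunit, for Mrps18a as a gene with letters of 2 factors, and for Mrpl46, whose window overlaps that of its head-to-head neighbour Mrps11; the last 2 were chosen after their values were seen. RefSeq (GRCr8) holds windows of 300 bases, 250 before and 50 after the gene start, for 54 of the 68 genes, 56 windows in all since Mrpl14 and Mrps21 have 2 each. Capitals mark the letters CCGGAAG (ETS family) and AAGATGGCG (YY1) on either strand, and GCGCATGC (NRF1) where present. These factors are known regulators of nuclear genes for mitochondrial proteins.
Mrpl23, GRCr8 chr1:207116680-207116979, + strand: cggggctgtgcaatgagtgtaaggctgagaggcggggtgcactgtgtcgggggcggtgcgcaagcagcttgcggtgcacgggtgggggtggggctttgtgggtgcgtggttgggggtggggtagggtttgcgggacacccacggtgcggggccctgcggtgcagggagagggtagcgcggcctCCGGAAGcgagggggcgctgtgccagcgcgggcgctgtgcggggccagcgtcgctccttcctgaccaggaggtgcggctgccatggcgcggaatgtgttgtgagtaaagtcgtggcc
Mrps23, GRCr8 chr10:73495988-73496287, + strand: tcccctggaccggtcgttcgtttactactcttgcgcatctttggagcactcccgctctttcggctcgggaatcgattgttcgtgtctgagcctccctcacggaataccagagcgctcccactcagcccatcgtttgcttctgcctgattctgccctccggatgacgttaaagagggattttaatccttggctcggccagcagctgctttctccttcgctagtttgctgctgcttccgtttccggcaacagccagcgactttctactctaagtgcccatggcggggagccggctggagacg
Mrps18a, GRCr8 chr9:22367331-22367630, - strand: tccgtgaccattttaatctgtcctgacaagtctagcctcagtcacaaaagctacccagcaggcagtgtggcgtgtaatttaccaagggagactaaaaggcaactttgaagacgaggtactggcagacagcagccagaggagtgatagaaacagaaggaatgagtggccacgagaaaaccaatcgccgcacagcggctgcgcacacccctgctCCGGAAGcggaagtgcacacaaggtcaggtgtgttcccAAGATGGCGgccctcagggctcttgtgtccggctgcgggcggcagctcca
Mrpl46, GRCr8 chr1:142116981-142117280, - strand: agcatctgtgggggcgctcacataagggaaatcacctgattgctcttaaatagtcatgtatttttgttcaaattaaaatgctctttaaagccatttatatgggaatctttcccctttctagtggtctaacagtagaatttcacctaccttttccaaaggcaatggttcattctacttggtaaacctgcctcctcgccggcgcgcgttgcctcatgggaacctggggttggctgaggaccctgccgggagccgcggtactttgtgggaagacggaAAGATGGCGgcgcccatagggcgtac

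The Mrpl23 window holds the ETS letters 67 bases before the start, and the Mrps23 window holds none of the 3 letter strings. In Mrps18a the ETS letters begin 38 bases before the start and the YY1 letters at the first base of the transcript. Mrpl46 and Mrps11 lie head to head: their starts are 234 bases apart, and 267 bases of their windows are shared. Mrpl46 read 7.60, 7.86 and 8.22 (lowest, median, highest) on supplemented arrays against 8.10, 8.25 and 8.36 on regular arrays. It fell by 0.36 (SE 0.08, adjusted p = 0.00257), while Mrps11 changed by 0.13 and did not pass. Whether these 2 changes differ was not tested.

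Over the 56 windows, ETS letters stood in 32.1%, against 8.7% of all 33469 windows in the table and 16.2% of the 9479 windows of genes tested. YY1 letters stood in 16.1%, against 1.7% of all windows and 3.3% of those of genes tested. NRF1 letters stood in 8.9%, against 2.5% and 4.6%. Matches of this string on opposite strands can overlap, as in Mrpl17, where they begin 2 bases apart. The letters GGGCGG (Sp1) stood in 51.8%, against 33.1% of all windows and 58.6% of those of genes tested. CCAAT (NF-Y) stood in 42.9%, against 37.5% and 37.8%, and CACGTG (E-box) in 10.7%, against 6.4% and 8.9%. The vitamin D response element of the DR3 type matched 0 of 56 windows, against 33 of all 33469 windows (0.1%). With matches this rare, 56 windows would seldom hold one, so the 0 does not set these genes apart. All letters were searched on both strands, and a match describes letters, not binding. Among the 38 windows of genes that fell, 13 held ETS letters, 5 YY1 letters and 2 NRF1 letters. Among the 18 windows of genes that did not pass, 5, 4 and 3 did.

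The deprived diet was compared with the regular one next. Of the 68 genes, 0 passed in limma. At an unadjusted p under 0.05 there were 13 of the 68, and 1816 of all 10879 genes tested. That 0 passed does not show that levels on these diets were equal. Over all genes tested, 0.184% were lower and 1.49% higher. The median change of the 68 genes was -0.022, and single changes ran from -0.34 (Mrpl23) to 0.30 (Mrpl50). The smallest adjusted p was that of Mrpl52, a central protuberance protein, at 0.0501 (change -0.32, SE 0.08, n = 5 and 6). It read 8.86, 8.87, 8.71, 8.59 and 8.59 on the 5 deprived arrays, against 8.87, 9.02 and 9.24 (lowest, median, highest) on the regular arrays. To 2 decimals the highest deprived array equalled the lowest regular one. Before rounding, deprived arrays were all below the regular ones in Mrpl52 and Mrpl44 (1.01% of all genes tested), and all above in Mrpl42 (4.52% of all genes tested). Depending on the setting the count was 0 to 4 of 68, the highest with array weights, where 8.17% of all genes tested were called.

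The 2 diets at the ends of the range were then compared, supplemented against deprived. Of the 68 genes 43 were lower, 3 higher and 22 did not pass, where 28.6% of all genes tested were lower and 18.6% higher. The median change was -0.269, against 0.001 over all genes, with a range of -0.99 to 0.28. In the large subunit 27 of 43 genes were lower and 1 higher, and in the small subunit 16 of 25 were lower and 2 higher. In 29 genes every supplemented array lay below every deprived array, which held for 17.7% of all genes tested. Within the signal range of the middle 34 genes, 23 were lower, against 43.4% of all genes in that range. This comparison shares the supplemented arrays with the first, so its calls are no separate evidence. With array spread as a covariate 0 of the 68 genes and 0 of all 10879 genes passed in limma (13 of the 68 at an unadjusted p under 0.05, against 47 before, and 1206 of all genes, against 6006 before). With the macrophage marker covariate 27 of the 68 passed, where 22.1% of all genes did.

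Mrpl15 had the largest difference between these diets. Its 5 deprived arrays read 8.31, 8.35, 8.36, 8.21 and 8.28, all above the supplemented maximum of 7.62, and the change was -0.99 (SE 0.11, n = 6 and 5, adjusted p = 7.9e-07). Mrps33 read 9.76, 9.73, 9.69, 9.75 and 9.65 on deprived arrays, above all supplemented arrays (change -0.84, SE 0.08, adjusted p = 1.34e-07). Mrps18c read 9.41, 9.41, 9.45, 9.14 and 9.12 on deprived arrays, also above all supplemented arrays (change -0.82, SE 0.11, adjusted p = 7.06e-06). Mrps23 (-0.73, SE 0.09) and Mrps25 (-0.72, SE 0.09) follow in the small subunit. In the large subunit they are Mrpl42 (-0.73, SE 0.10), Mrpl50 (-0.68, SE 0.11) and Mrpl47 (-0.67, SE 0.08), the last of which has a bacterial counterpart near the tunnel exit. In all of these genes the arrays of the 2 diets lay apart. In this comparison Mrpl23 fell by 0.49 (SE 0.12, adjusted p = 0.00183), with overlap, as its deprived arrays read 8.74, 8.99, 8.69, 8.29 and 8.53.

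The 3 genes that were higher in supplemented than in deprived samples were Mrpl30 of the large subunit and Mrps10 and Mrps11, proteins of the head and the platform of the small subunit. With arrays centred on their median none of the 3 passed. Mrps11 read 7.55, 7.78 and 7.82 (lowest, median, highest) on supplemented arrays, against 7.55, 7.66, 7.02, 7.55 and 7.58 on the deprived arrays. All but the lowest supplemented array lay above the deprived ones (change 0.28, SE 0.09, n = 6 and 5, adjusted p = 0.017), but without deprived replicate 4 the change was 0.164 and did not pass (adjusted p = 0.066). A second, dimmer row of Mrps11 changed by 0.14, with overlap (7.15 to 7.73 on supplemented and 7.28 to 7.54 on deprived arrays). Mrps10 read 6.96, 7.28 and 7.59 on supplemented arrays, against 7.21, 7.06, 7.03, 7.08 and 6.84 on the deprived arrays, with overlap (change 0.27, SE 0.10, adjusted p = 0.0251). It did not pass without supplemented replicate 1 or 4 or deprived replicate 6 (changes of 0.220 to 0.225). Mrpl30 read 7.85, 8.06 and 8.40 on supplemented arrays, against 8.03, 7.79, 7.94, 7.65 and 7.90 on the deprived arrays, with overlap (change 0.24, SE 0.10, adjusted p = 0.0461). It did not pass in 10 of the 17 fits that left out 1 array, those without supplemented replicates 1, 2 or 4, deprived replicates 3 to 6 or regular replicates 2, 4 or 6, with changes of 0.181 to 0.26. RefSeq lists pseudogenes for all 3 of these genes.

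**Figure D5:**
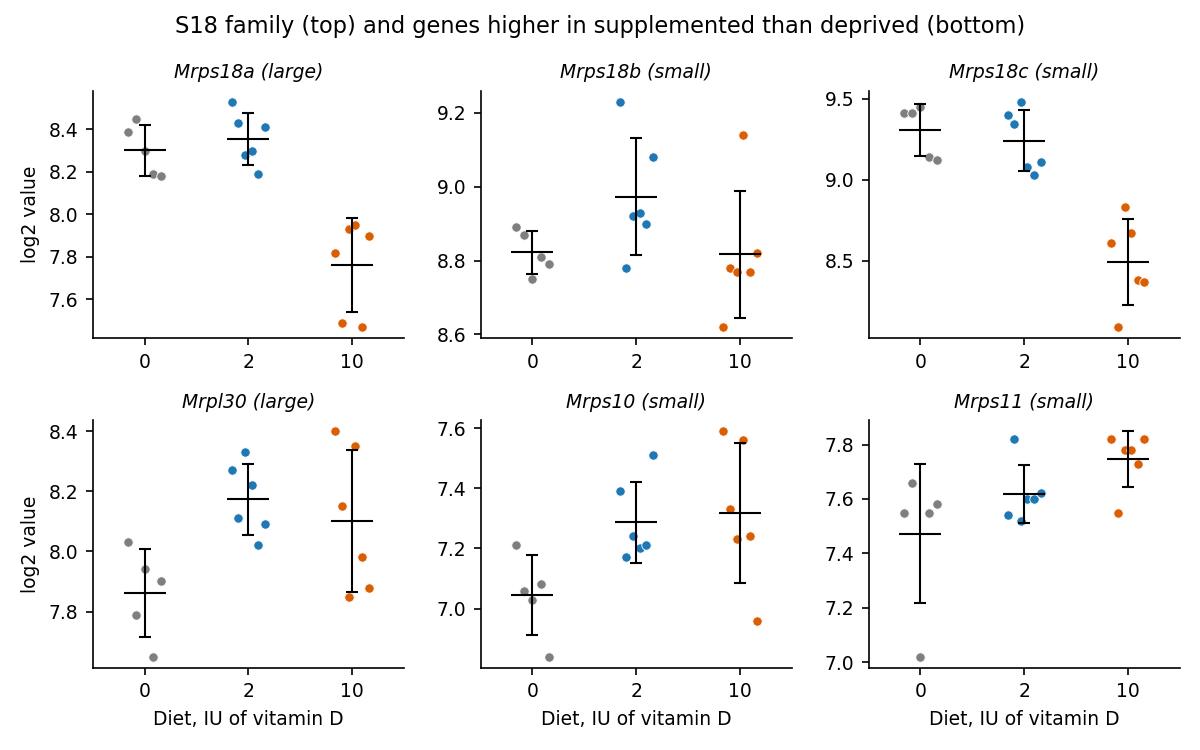
Log2 signal on each array of the S18 family (top row) and of the 3 genes higher in supplemented than in deprived samples (bottom row), by IU of vitamin D in the diet. Points are arrays and bars the mean ± SD. Mrps18a and Mrps18c are low on all 6 supplemented arrays, Mrps18b overlaps across diets, and the low point of Mrps11 at 0 IU is deprived replicate 4 (7.02).

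Across the 3 diets together, 50 of 68 genes passed limma's moderated F test, against 45.3% of all genes tested. RefSeq lists at least 1 pseudogene for 22 of the 68 genes, and the source of their signal is uncertain to that extent. Among the genes with the largest changes, these are Mrpl23, Mrps17, Mrps18c and Mrps25 (1 pseudogene each) and Mrpl15, Mrpl42 and Mrpl47 (2 each). Mrpl2, Mrpl46, Mrps10, Mrps11, Mrps18b and Mrps21 (1 each), Mrps16 (2) and Mrpl30 (9) are among the others. Of those 22, 13 (59.1%) fell in supplemented against regular samples, and of the 46 without one 32 (69.6%) fell. Of all genes tested 22.9% were lower. Whether pseudogenes play a part in these falls was not tested. Second rows of a gene gave the same direction in all 4 genes that have 2 rows. For supplemented minus regular, Mrpl41 changed by -0.66 and -0.60 in its 2 rows, Mrpl42 by -0.46 and -0.38, Mrpl40 by 0.09 and 0.13, and Mrps11 by 0.13 and 0.06. RefSeq also names the near copies Mrpl41l1, Mrpl42l1 and Mrps21l, and whether these rows tell them apart was not tested.

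Genes that work with this ribosome were listed as well. Their counts for supplemented minus regular stand against the 22.9% of all genes that were lower and the 10.8% that were higher. Of 5 tested proteins of the mitochondrial ribosome with other names, Gadd45gip1 (-0.53, SE 0.08), Chchd1 (-0.37, SE 0.07) and Aurkaip1 (-0.27, SE 0.06) fell in supplemented against regular samples. Ptcd3 (0.03) and Dap3 (-0.14) did not pass. Of 8 tested translation factors of mitochondria 5 fell and 0 rose (median -0.293). They were the release factor Mtrf1l (-0.50, SE 0.09), the elongation factors Tufm (-0.37, SE 0.08) and Gfm1 (-0.36, SE 0.07), the recycling factor Gfm2 (-0.34, SE 0.08) and the initiation factor Mtif2 (-0.21, SE 0.07). Tufm and Mtrf1l were also higher in deprived than in regular samples, by 0.33 (SE 0.08, adjusted p = 0.0367) and 0.38 (SE 0.10, adjusted p = 0.0481). In that comparison 1.49% of all genes were higher. Mtrf1l averaged 8.41 on deprived (8.32 to 8.53), 8.03 on regular (7.70 to 8.25) and 7.54 on supplemented arrays (7.31 to 7.82).

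Of 22 tested assembly and ribosomal RNA modification factors 5 fell (22.7%, close to the 22.9% of all genes), 1 rose and 16 did not pass (median -0.113). The falls included the GTPases Gtpbp10 (-0.70, SE 0.10) and Mtg1 (-0.48, SE 0.08), the large subunit assembly factor Malsu1 (-0.62, SE 0.12) and Mterf4 (-0.48, SE 0.08), and the rise was that of the pseudouridine synthase Rpusd3 (0.30, SE 0.06). Of 15 tested mitochondrial aminoacyl-tRNA synthetases and partners 3 fell (a share below the 22.9% of all genes) and 1 rose (Sars2, 0.20, SE 0.06). Kars1 (-0.68, SE 0.09) and Gars1 (-0.35, SE 0.08), which also serve cytosolic translation, fell along with Hars2 (-0.33, SE 0.09). Of 12 tested genes of mitochondrial DNA maintenance and transcription, 4 fell (33.3%) and 1 rose, and Tfam, which packages the DNA, did not pass (-0.20, adjusted p = 0.148). The falls were Tefm (-0.45, SE 0.11), Mterf1 (-0.40, SE 0.09), Ssbp1 (-0.26, SE 0.06) and Polg2 (-0.21, SE 0.07), and the rise was the RNA polymerase Polrmt (0.21, SE 0.08), named after its value was seen. Lrpprc, which stabilises mitochondrial messengers, was higher in deprived than in regular samples (0.29, SE 0.06, adjusted p = 0.0257), as were 1.49% of all genes. Transcripts of mitochondrial DNA had no row with a symbol of their own, so the messengers that this ribosome translates were not analysed here.

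The classes of genes closest in kind also fell. In supplemented against regular samples, 60 of 72 cytosolic ribosomal protein genes fell (83.3%, median -0.259), and 58 of 74 nuclear genes of the respiratory chain and ATP synthase fell (78.4%, median -0.375), against 22.9% of all genes tested. That 22.9% covers all signal levels. In the brightest bin 52.6% of all genes fell, and these classes were not matched for signal. The difference between these classes and the mitochondrial ribosomal protein genes was not tested.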

How the data were processed

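CD4+ T cell RNA from 17 samples was measured on Affymetrix rat gene arrays from 250 ng of total RNA each, per the labels' protocols. The values are the authors' deposited log2 expression values, made with RMA (background correction, quantile normalization and probe summary) in Partek 6.0, per the submitters' processing notes. The log base was inferred from how far the values range. The genome build, filters and probe file were not given in the sources used here. Of 29214 rows, 15310 carried 1 gene symbol. Genes were matched to RefSeq (GRCr8) for current names, and promoters by gene identifier. Each gene was represented by its row of highest mean, and the dimmest 25% of genes were left out, which kept means of at least 5.321.

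One limma 3.58.1 model (lmFit and eBayes in R 4.3.3, 14 residual and 8.19 prior degrees of freedom) covered the 3 diets with no covariate. The p-values were adjusted with Benjamini-Hochberg over all genes. The model was also run on simulated data, with noise drawn separately for each gene and array. Those data held no array-wide shift, so that run cannot speak to the difference in array spread. The labels call the samples biological replicates and name no batch, so the p-values reflect only how far these samples vary. The number of arrays limits the precision.

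The genes and lists were chosen with earlier results of these data known. Values are named for fixed genes (Mrpl2, Mrpl3, Mrpl12, Mrpl44, Mrps12, Mrps16, the S18 family, Mrps22, Mrps30, Mrps34), for the 4 largest called changes per subunit, direction and comparison, the 2 smallest changes per subunit, and the brightest and dimmest gene. Up to 4 genes of smallest p were named per other list. The central protuberance and head genes, Ptcd3, Tfam and Polrmt were named after their values were seen. Alternatives were quantile normalization, cyclic loess, median centring, other filters and rows, other moderation, array weights, a replicate block, covariates, fewer arrays and a threshold of 0.1.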

Additional observations from a re-analysis of the deposited data

Results flagged for a closer look

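In each diet the arrays of the 31 named genes, the subunit means and the array spread were checked for a single array far from the others, 105 groups of arrays in all. Chance alone flags about 1 in 20 such groups, and 6 were found. Mrps11 had one in every diet: supplemented replicate 2 was low at 7.55 (the nearest other array read 7.73), deprived replicate 4 was low at 7.02 (nearest 7.55), and regular replicate 2 was high at 7.82 (nearest 7.62). Mrpl23 was low on supplemented replicate 2 at 7.69, where the nearest other array read 8.2. Mrpl37 was low on supplemented replicate 3 at 7.81 (nearest 8.03). Mrps12 was high on deprived replicate 3 at 9.27 (nearest 9.01).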

How the results depend on the processing

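For supplemented minus regular, 45 of 68 genes were called, 39 after quantile normalization or cyclic loess, 50 with median centring, 35 without supplemented replicates 2 and 5, 16 with the macrophage marker mean as a covariate and 0 with array spread as a covariate, where 0 of all genes tested were called too. Leaving out 1 array at a time gave 40 to 47. For supplemented minus deprived, where 46 were called, the macrophage covariate gave 27, the spread covariate 0, and single arrays left out 42 to 47. For the F test the 50 calls became 27 with the macrophage covariate, 2 with the spread covariate and 45 to 51 with 1 array left out. For deprived minus regular 0 genes were called. There, 1 was called with cyclic loess, with the dimmest 50% of genes left out, with trend and robust moderation, with either covariate, or without supplemented replicates 2 and 5. In these settings 0.625% to 3.16% of all genes tested were called. Array weights gave 4 (8.17% of all genes) and the fit with only the 2 diets compared gave 3 (4.28%). The threshold of 0.1 gave 2 (3.74%), and single arrays left out 0 to 1.

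The median change of the genes for supplemented minus regular was -0.261, -0.339 with median centring and -0.099 with the spread covariate. For supplemented minus deprived it was -0.269, -0.373 with median centring and -0.001 with the spread covariate. Median centring moved the median of all genes to -0.078 and -0.103 in these comparisons. With the spread covariate 15 of the 68 estimates changed sign for supplemented minus regular and 26 for supplemented minus deprived, where 34 then lay below 0, against 54 before. Among the genes named by rule and called before, the sign turned in 6 estimates: Mrpl3 (0.204) and Mrpl49 (0.176) against the regular diet, and Mrpl2 (0.013), Mrpl3 (0.314), Mrps18a (0.076) and Mrpl50 (0.031) against the deprived diet. Spread and the macrophage marker mean do not overlap between supplemented and regular arrays, so these covariates and the diet go together, and the cause was not tested. Over 2238 alternative fits of a named gene, the call was lost with the sign kept in 88 and gained in 7. It was also lost in the 6 fits above in which the sign turned. Genes not called before are among the 2238, and there no call could be lost.

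Same-numbered arrays of different diets did not deviate together (4 of 16 correlations above 0.1, range -0.207 to 0.195), so the numbers were not taken as pairs. With the replicate block the counts were 42, 1, 44 and 46 for supplemented minus regular, deprived minus regular, supplemented minus deprived and the F test.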
